A study of Mus with 2 samples.

Results

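The cells that the authors labelled Marco, a cluster of macrophages in whole-kidney single-cell RNA sequencing, were compared between senescent and young C57BL/6 mice gene by gene. The genes described are those that the authors' deposited table lists for Marco with a mean level of at least 0.1 in either library. All 4462 entries of the cluster met this minimum and 0 fell under it, the smallest higher mean being 0.122, out of 20111 entries for 8191 gene names in 7 clusters. The senescent group was 1 library from the kidney of mice that the labels call senescent, with 4408 cells stated for all cell types, and the young group was 1 library from mice labelled young, with 10895 cells stated. No treatment, mutation or transgene is named for either group, and the sources used here give neither the ages and sex of the mice nor how many were pooled per library and how many cells the cluster holds. Kidneys were digested with enzymes, and single cells were caught in droplets with barcoded beads before sequencing.

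Each value is the authors' mean signal per gene over the cells of the cluster in 1 library, on a scale whose factor is not stated. The table lists a gene only where the authors' p over cells was under 0.05 and their absolute log2 fold change was at least 0.36, so the absence of a gene from the table does not show equal levels. Variation between animals could not be measured with a single library on each side, so no test was run and no value has an error. Cell numbers and read depth per cluster are unknown, and in such means fewer cells that express a gene and less RNA per cell cannot be told apart. Differences below are therefore differences between these libraries, and levels are compared between libraries for the same gene, not between genes.

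Kidney macrophages lie between the tubules and around the glomeruli. They depend on signalling through the receptor Csf1r, engulf dying cells and immune complexes, produce the complement component C1q and present antigen on MHC class II molecules. Some are long-lived residents of the tissue and others derive from blood monocytes that express Ly6c2 and Ccr2, and both release chemokines that attract further leukocytes.

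The label was checked first on markers. All 20 of the 20 macrophage markers examined were listed, and each of them was higher in the senescent library. Being listed shows only that a gene passed the authors' thresholds for this contrast, so it is no evidence for the label. The markers were also chosen with earlier results of these data known. Maf and Mertk, macrophage genes placed in other lists, had lower means in the senescent library. C1qa, a chain of complement C1q, had a mean level of 44.5 in the senescent library, against 5.50 in the young library. Csf1r, the receptor for macrophage colony-stimulating factor, was at 4.33 in the senescent and 0.766 in the young library. Adgre1, which encodes the F4/80 antigen, stood at 1.73 in senescent and 0.402 in young cells. The membrane protein gene Ms4a7 had 4.10 in the senescent and 0.423 in the young library, a 9.71-fold difference. Apoe, the apolipoprotein that carries lipid out of macrophages, had 144 in the senescent and 9.02 in the young library, which is 15.9-fold. Cd74, the invariant chain of MHC class II, reached 175 in the senescent library, against 38.2 in the young library. Of the 20 markers, 10 were also listed in the authors' T, B, PT (proximal tubule), LOH (loop of Henle) or endo (endothelial) cluster. No further cluster was compared. Among these clusters and the macrophage cluster, the macrophage mean was the highest for 10 of the 10 in the senescent library and for 10 in the young library. The scavenger receptor gene Marco, spelled like the cluster label, was not listed, and whether the label refers to that gene is not known here.

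Markers of other cells were unevenly present. None of the 20 T and natural killer cell markers, 14 endothelial markers, 16 mesenchymal and podocyte markers or 8 red cell markers was listed (0 listed in each), which says only that none passed the authors' thresholds for this contrast. Of 18 B cell markers 3 were listed, among them Igkc, the kappa light chain, at 1.99 in the senescent and 0.188 in the young library. Markers of the proximal tubule were listed far more completely. Of 30 proximal tubule markers 28 were listed, and their summed mean was 51.9 in the senescent library, against 1053 in the young library, where it was 20.3 times as high. Kap, the kidney androgen-regulated protein of tubule cells, had 2.24 in the senescent and 642 in the young library. The tubular anion transporter gene Slc22a7 was listed at 0 in the senescent library and at 0.723 in the young library. Genes of the mitochondrial genome and of the tubule list together made up 4.86% of the summed listed means in the senescent library and 38.4% in the young library. This difference moves with every comparison below, and its part in the other results was not tested.

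**Figure D1:**
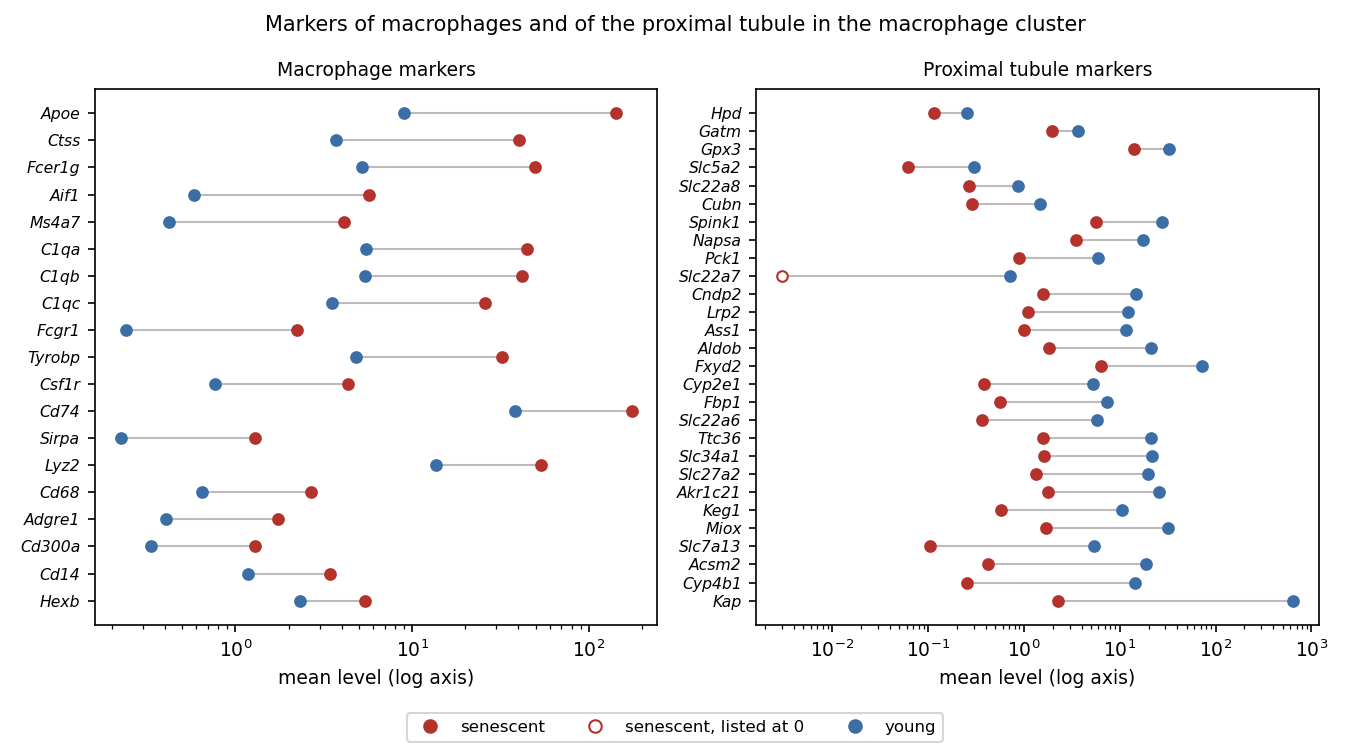
Mean level (log axis, the authors' scale) of 19 of the 20 listed macrophage markers and of the 28 listed proximal tubule markers in the senescent library (red) and the young library (blue). Each row is 1 gene with both library means joined by a line, and an open point marks a gene listed at 0, drawn at the left edge. All macrophage markers shown are higher in the senescent library and all listed tubule markers are higher in the young library.

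Across the cluster, 2602 listed genes had the higher mean in senescent cells and 1860 in young cells. After 0.1 was added to each mean, 1651 genes (37.0%) were at least 2-fold higher, 1138 (25.5%) were at least 2-fold lower and 1673 lay between. The median log2 ratio of senescent over young was 0.72, and the counts and medians of the gene groups below are read against these values. At 0 were 5 genes in the senescent library and 30 in the young library. The macrophage markers had a median log2 ratio of 2.75, with 20 of 20 at least 2-fold higher, and only 133 listed genes (2.98%) exceeded that median.

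The split between higher and lower genes depended on the scale. Relative to the median of all listed genes, 649 were at least 2-fold higher and 1854 lower. Relative to the cytosolic ribosomal protein genes, whose median was 1.18, the counts were 347 and 1860, and the median of all genes was -0.45. Relative to the macrophage markers they were 31 and 3827, with a median of -2.02. When the libraries were scaled to equal listed sums without mitochondrial genome and tubule list genes, a choice made after seeing the data, the counts were 892 and 1560. Beside the median of each group, its value relative to the macrophage markers is therefore given: a negative one means that the group differed less, upwards, than those markers. Several groups share genes with the markers, such as Fcer1g, Fcgr1 and Tyrobp with the uptake receptors and Cd74 and Ctss with antigen presentation. For such groups the value partly sets the markers against themselves.

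**Figure D2:**
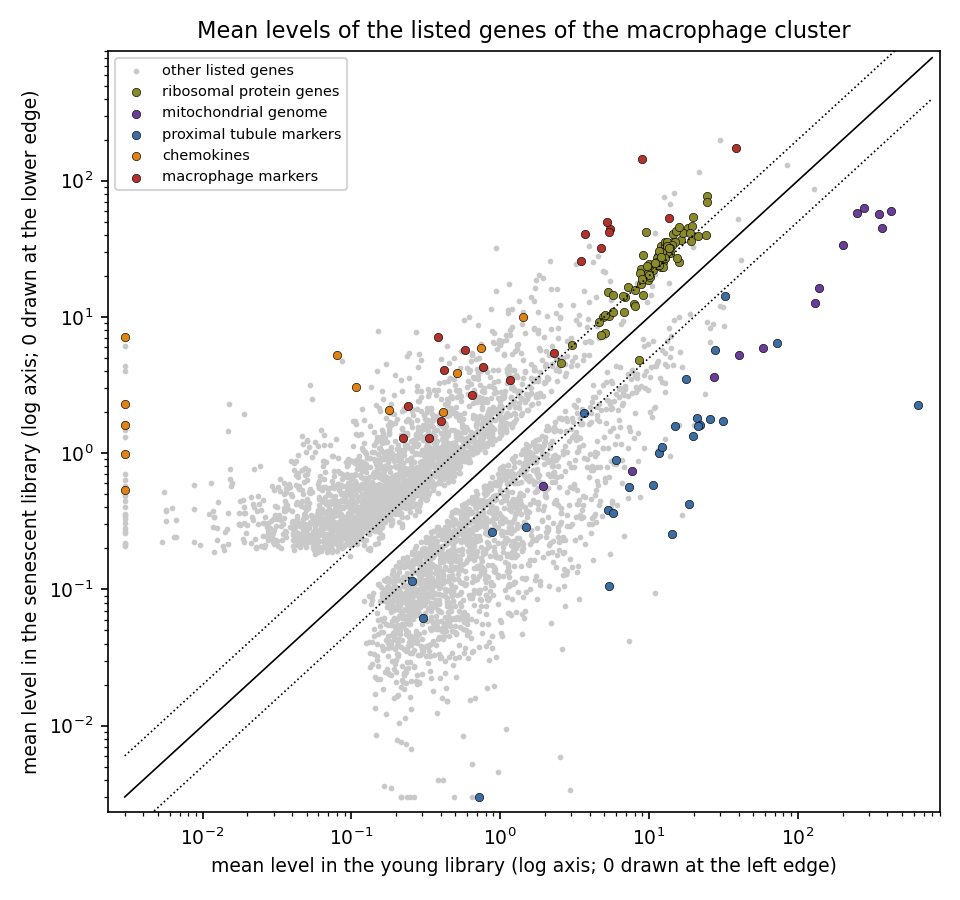
Mean level of each listed gene of the macrophage cluster in the young library (horizontal, log axis) and the senescent library (vertical, log axis), with genes at 0 drawn at the edges. The solid line marks equal means and the dotted lines a 2-fold difference of the means, and the empty band along the solid line holds no gene because the table lists only genes past the authors' fold change. Macrophage markers and chemokines lie above the solid line, mitochondrial genome and tubule marker genes below it, and the ribosomal protein genes lie near the upper dotted line.

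Most listed transcription factors of the lineage list were higher together with the markers. The list is not limited to factors of macrophage identity, and Klf2, Klf4, Klf6, Nr4a1 and Cebpd are also counted among the immediate early genes below. Of 44 factors 33 were listed, 29 at least 2-fold higher and 0 at least 2-fold lower in senescent cells. The median log2 ratio was 2.08, or -0.67 relative to the macrophage markers. Spi1, which encodes the myeloid master factor PU.1, was at 5.24 in senescent and 0.644 in young cells. Klf2, a factor linked to quiescence and restraint of inflammation, had 9.42 in the senescent library and 0.568 in the young library. Runx3, which acts in several leukocyte lineages, stood at 1.49 in the senescent and 0.0620 in the young library, and Cebpb, a factor of inflammatory and monocyte genes, at 13 and 1.68 in the same order. Maf (c-Maf) went the other way, with 1.82 in the senescent and 2.76 in the young library.

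Both monocyte genes and genes of resident macrophages were mostly higher in the senescent library. The monocyte list had 18 of 20 members listed, 15 at least 2-fold higher and 1 at least 2-fold lower, with a median of 2.47, or -0.28 relative to the macrophage markers. Ly6c2, the surface antigen of classical monocytes, was at 2.15 in the senescent and 0.154 in the young library, and their homing receptor gene Ccr2 at 5.94 in senescent and 0.761 in young cells. Chil3, a chitinase-like protein of monocytes and activated macrophages, had 7.78 in the senescent library and 0.270 in the young library, one of 20 genes whose log2 ratio exceeded that of every macrophage marker. Plac8 had 16.4 in the senescent and 1.70 in the young library, and the integrin gene Itgam, which encodes CD11b, had 2.50 and 0.164 in that order. Ace, which non-classical monocytes express and which is also an enzyme of the proximal tubule brush border, was the single monocyte gene lower by at least 2-fold, at 0.206 in the senescent and 1.05 in the young library.

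Among resident macrophage genes 10 of 20 were listed, 7 at least 2-fold higher and 1 lower, with a median of 2.01, or -0.74 relative to the macrophage markers. Cx3cr1, the fractalkine receptor, had 6.28 in the senescent and 0.994 in the young library. The mannose receptor gene Mrc1 was at 1.81 in senescent and 0.172 in young cells, and Trem2, a lipid-sensing receptor, at 1.73 in senescent and 0.106 in young cells. Cd72, a receptor shared with B cells, was at 8.74 in the senescent library and 0.715 in the young library. Selenop, a selenium carrier that tubule cells also make, was lower, at 5.70 in the senescent and 12.2 in the young library. Cd163, Lyve1, Folr2, Timd4, Vsig4 and Siglec1, which mark resident subsets in many organs, were not listed. Of the dendritic cell list 9 of 20 were listed, 7 at least 2-fold higher and 1 lower, with a median of 1.98, or -0.77 relative to the macrophage markers. Naaa, a lysosomal amidase, was at 3.45 in the senescent and 0.214 in the young library, whereas Mgl2, a lectin of type 2 dendritic cells and some macrophages, was at 0.209 and 0.672 in that order. The lineage-defining genes Flt3, Zbtb46, Xcr1 and Clec9a were not listed. Batf3 and Itgax of the same list were listed and at least 2-fold higher. The genes that were not listed therefore do not show that dendritic cell transcripts were missing.

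**Figure D3:**
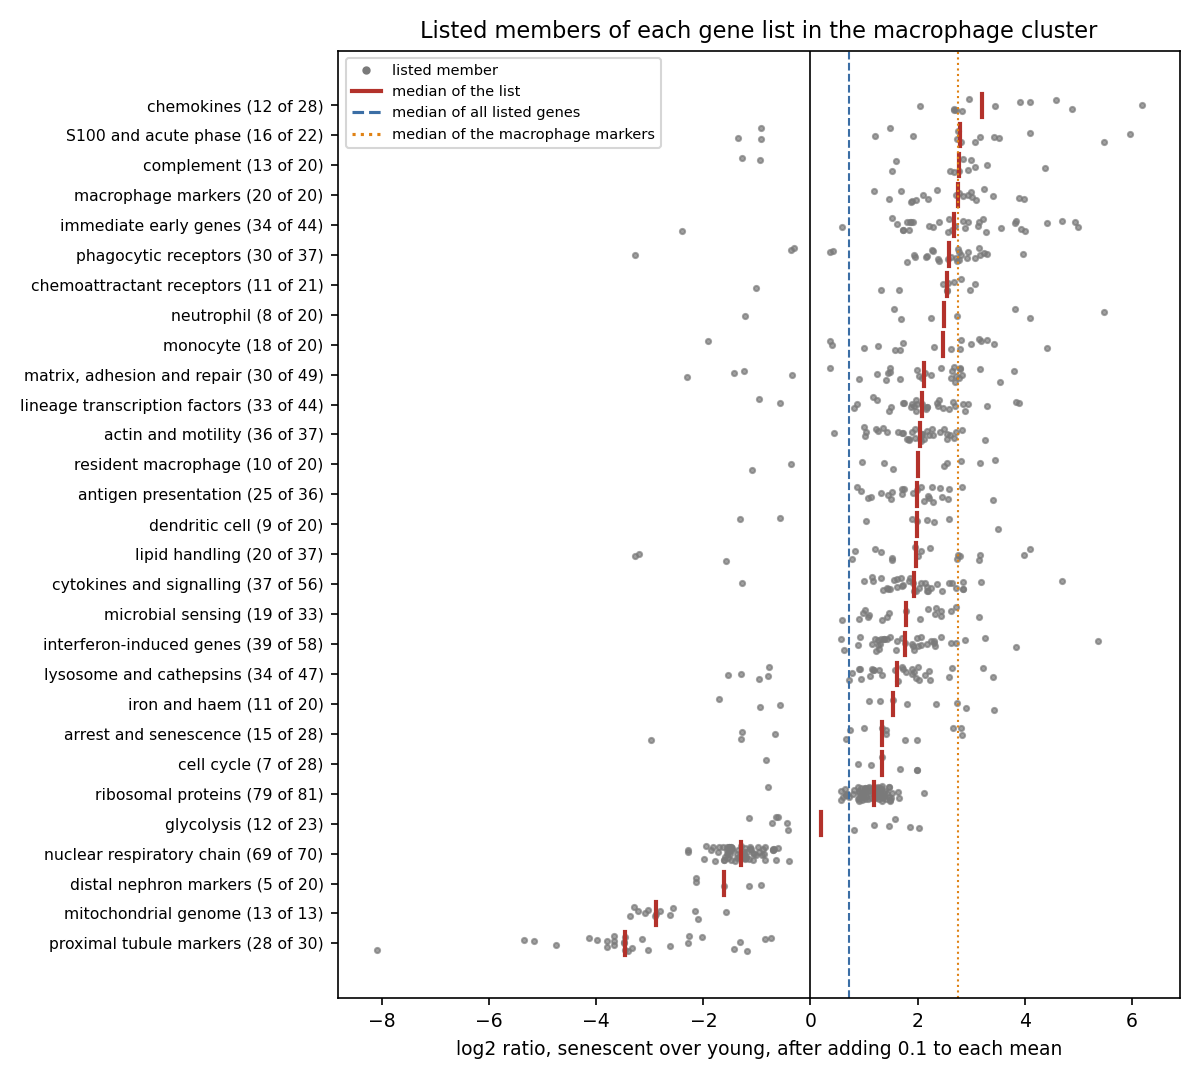
Log2 ratio of senescent over young mean level after adding 0.1 to each, for the listed members (grey points) of each gene list with 5 or more listed members, and the median of each list (red bar). Numbers in brackets are listed members of all members, the dashed line is the median of all listed genes (0.72) and the dotted line that of the macrophage markers (2.75), so lists between 0 and the dotted line turn negative relative to those markers. With 0.1 added, chemokines have the highest list median and proximal tubule markers the lowest, and the first of these ranks is lost with 1 or 0.0001 added.

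Complement genes were among the groups with the highest median. Of 20 genes 13 were listed, with 11 at least 2-fold higher and 1 at least 2-fold lower in the senescent library, a median of 2.77, and 0.021 relative to the macrophage markers. C1qa, C1qb and C1qc belong to both lists, so the last value is not a comparison of separate genes. The genes C1qa, C1qb and C1qc, whose products assemble into C1q, lie side by side within 18.7 kb on chromosome 4 (136880126 to 136898844, RefSeq positions on GRCm38, the mm10 build). C1qb had 42.0 in the senescent and 5.38 in the young library, and C1qc had 25.7 in the senescent and 3.50 in the young library, so the folds of the 3 chains were 8.10, 7.80 and 7.36. C4b, the classical pathway component downstream of C1q, was at 2.30 in the senescent library and 0.0151 in the young library. The anaphylatoxin receptor genes C5ar1 (2.05 in senescent, 0.155 in young) and C3ar1 (1.70 in senescent, 0.181 in young) were higher in the senescent library as well. Factor B of the alternative pathway, Cfb, had 0.104 in the senescent and 0.393 in the young library, the opposite direction.

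Receptors for uptake followed. Of 37 genes 30 were listed, 25 at least 2-fold higher and 1 at least 2-fold lower, with a median of 2.59, or -0.16 relative to the macrophage markers. Fcer1g, the signalling chain shared by activating Fc receptors, had 49.7 in the senescent and 5.20 in the young library. Among the immunoglobulin G receptors, Fcgr4 was at 5.20 in the senescent and 0.238 in the young library, a 21.8-fold difference. Fcgr1 differed 9.28-fold (2.24 in senescent, 0.241 in young), the inhibitory receptor gene Fcgr2b 8.57-fold (6.36 in senescent, 0.743 in young) and Fcgr3 5.87-fold (4.13 in senescent, 0.702 in young). Activating and inhibitory receptors thus lay on the same side. Fcgr2b, Fcgr3 and Fcgr4 lie within 105 kb on chromosome 1 and are similar in sequence, as are the lectin genes of the Clec4 group on chromosome 6, and how the authors' counting divided reads between such copies is not stated.

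Genes for the uptake of dying cells and lipid did not share 1 direction. Of the phosphatidylserine-dependent system, Axl, a receptor tyrosine kinase, had 0.836 in the senescent and 0.0949 in the young library. Its relative Mertk, the main receptor of resident macrophages for dying cells, was at 0.135 in senescent and 0.191 in young cells, and their bridging ligand Gas6 at 0.578 in senescent and 0.773 in young cells, both less than 2-fold lower. Cd36, the scavenger receptor for oxidised lipid and long-chain fatty acids, had 0.185 in the senescent library, against 2.65 in the young library, and it was also lower in the T cluster (0.139 in senescent, 1.69 in young) and the B cluster (0.145 in senescent, 0.798 in young). Msr1, the class A scavenger receptor, was at 0.571 in the senescent library and listed at 0 in the young library.

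Lysosomal and lipid genes were mostly higher in the senescent library. The lysosome list had 34 of 47 members listed, 24 at least 2-fold higher and 2 at least 2-fold lower, with a median of 1.61, or -1.14 relative to the macrophage markers. Ctss, the cathepsin that trims the invariant chain, had 40.4 in the senescent and 3.71 in the young library. Ctsc, which activates serine proteases, was at 11.2 in senescent and 1.12 in young cells. Ctsl, a cathepsin that tubule cells also express, ran the other way, at 2.37 in the senescent and 4.16 in the young library. So did the sialidase gene Neu1, at 0.713 in the senescent and 2.27 in the young library. Of the lipid list 20 of 37 were listed, 15 at least 2-fold higher and 3 at least 2-fold lower, with a median of 1.98, or -0.77 relative to the macrophage markers. Pltp, the phospholipid transfer protein, had 4.53 in the senescent and 0.171 in the young library. Alox5ap, which presents arachidonic acid for leukotriene synthesis, was at 11.4 in senescent and 1.2 in young cells. Lpl, the lipoprotein lipase, was lower, at 0.419 in the senescent and 4.65 in the young library. Lipid export and transfer genes such as Apoe and Pltp were thus higher, while Lpl and Cd36, which bring fatty acids into cells, were lower.

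Chemokine genes had the highest median of the lists with 5 or more listed members with 0.1 added to each mean. That rank depended on the added value: with 1 added, the macrophage markers were higher (1.99, against 1.70 for chemokines), and with 0.0001 added, the neutrophil list was higher (5.56, against 5.42). All 12 listed of 28 chemokines were at least 2-fold higher in senescent cells, with a median of 3.20, or 0.45 relative to the macrophage markers, and 8 of the 12 lay above the median macrophage marker. At 0 in the young library were 5 of them, and over the other 7 the median was 2.83. The monocyte-attracting genes Ccl2, Ccl7, Ccl8 and Ccl12 lie within 81.2 kb on chromosome 11 (82035577 to 82116799, mm10). Ccl2 had 3.04 in the senescent library and 0.108 in the young library. Ccl12, its close relative in mice, was at 5.25 in senescent and 0.0806 in young cells. Ccl8 was at 2.29 and Ccl7 at 1.61 in the senescent library, and both were listed at 0 in the young library. Cxcl13, which draws B cells into follicles, stood at 7.14 in the senescent library and at 0 in the young library. With 0.1 added to each mean this was the largest log2 ratio of all listed genes, but a ratio against 0 depends on the added value. The neutrophil attractant Cxcl2 was at 0.985 in the senescent library and at 0 in the young library. Cxcl16, a ligand for receptors on T and natural killer T cells, had 3.85 in the senescent and 0.514 in the young library. In the T cluster Cxcl16 was at 0.0891 in the senescent and 0.168 in the young library, and in the B cluster at 0.0365 in senescent and 0.233 in young cells, the opposite direction. The interferon-induced chemokines Cxcl9 and Cxcl10 and the T cell attractant Ccl5 were not listed in the macrophage cluster.

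Receptors for such signals were higher too. Of 21 chemoattractant receptors 11 were listed, 10 at least 2-fold higher and 1 at least 2-fold lower, with a median of 2.55, or -0.20 relative to the macrophage markers. Ccr1, which binds Ccl3 and Ccl7, was at 0.879 in the senescent and 0.0647 in the young library. Ccr2 and its ligand genes Ccl2, Ccl7 and Ccl12, whose values are given above, were therefore higher in the same library. Ccl4, an inflammatory chemokine of macrophages, was at 9.94 in senescent and 1.43 in young cells. The 1 receptor gene at least 2-fold lower was Ackr3, which scavenges chemokines, with 0.0550 in the senescent and 0.213 in the young library.

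**Figure D4:**
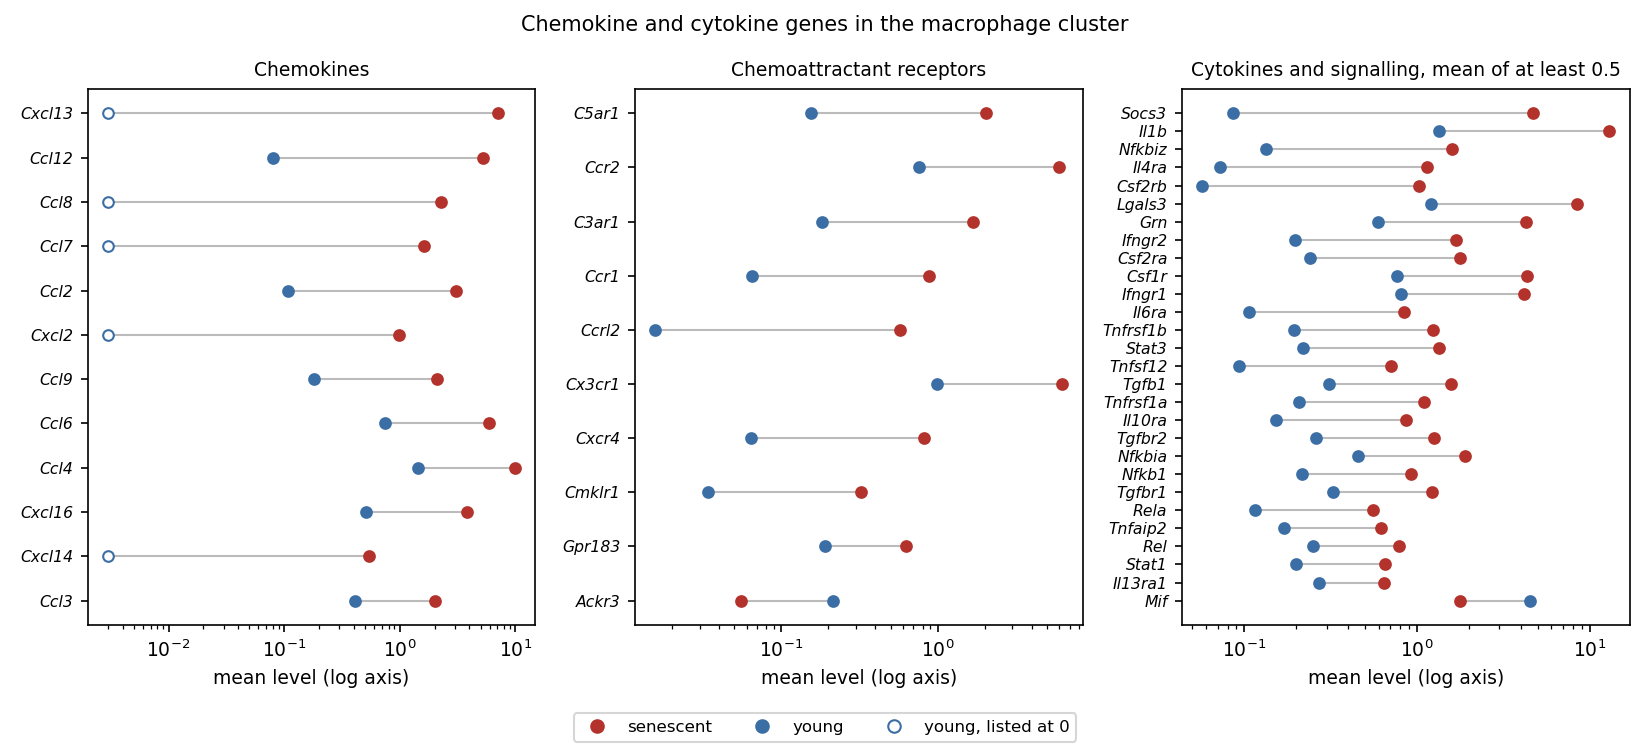
Mean level (log axis, the authors' scale) of listed chemokines, chemoattractant receptors and cytokine or signalling genes in the senescent library (red) and the young library (blue), with open points at the left edge for genes listed at 0 in the young library. All 12 chemokines, all receptors shown but Ackr3 and all signalling genes shown but Mif are higher in the senescent library, although relative to the macrophage markers 8 of the chemokines and 3 of all 11 listed receptors lie higher.

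Cytokine and signalling genes were nearly uniformly higher. Of 56 genes 37 were listed, 36 at least 2-fold higher and 1 at least 2-fold lower in senescent cells, with a median of 1.94, or -0.81 relative to the macrophage markers. Il1b, which encodes the fever cytokine interleukin-1 beta, had 13 in the senescent and 1.34 in the young library. Socs3, a feedback inhibitor of interleukin-6 type signalling, was at 4.72 in senescent and 0.0860 in young cells. Nfkbiz, an inducible co-regulator of NF-kappaB targets, stood at 1.59 in the senescent and 0.134 in the young library. Receptor genes for interleukin-4 (Il4ra, 1.14 in senescent and 0.0721 in young) and the shared chain of the GM-CSF receptor (Csf2rb, 1.03 in senescent and 0.0572 in young) were higher as well. Tnf was low in both libraries, at 0.331 in the senescent and 0.0310 in the young library. Mif, macrophage migration inhibitory factor, was the 1 gene lower by at least 2-fold, with 1.78 in the senescent and 4.49 in the young library. Il6, Il10, Nos2, Arg1 and Ptgs2, genes of strongly polarised macrophages, were not listed.

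Sensors of microbes and damage were higher in the senescent library wherever they passed 2-fold. Of 33 genes 19 were listed, 16 at least 2-fold higher and 0 lower, with a median of 1.79, or -0.96 relative to the macrophage markers. Sting1, the adaptor for cytosolic DNA, had 1.23 in the senescent and 0.0504 in the young library. Tlr2 was at 0.708 in senescent and 0.0502 in young cells. Pycard, the inflammasome adaptor, stood at 2.90 in the senescent and 0.384 in the young library. Unc93b1, which escorts the nucleic acid-sensing Toll-like receptors, was at 4.78 in the senescent and 0.641 in the young library.

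Genes of the S100 family and the acute phase held several of the largest differences. Of 22 genes 16 were listed, 13 at least 2-fold higher and 1 lower, with a median of 2.79, or 0.038 relative to the macrophage markers. Saa3, an acute phase apolipoprotein made by activated mouse macrophages, was at 6.17 in the senescent library and at 0 in the young library. S100a8 was at 4.34 in the senescent library and at 0 in the young library, and its partner S100a9, 26.6 kb away at most on chromosome 3, at 1.93 in senescent and 0.0191 in young cells. Both also define neutrophils. Of the neutrophil list 8 of 20 were listed, 7 at least 2-fold higher and 1 lower, with a median of 2.49, or -0.26 relative to the macrophage markers, and a summed mean of 9.57 in the senescent and 1.00 in the young library. Most of the young sum was G0s2, the 1 gene lower. Lcn2 (0.563) and Wfdc21 (1.32) of this list were found in the senescent library and listed at 0 in the young library. The neutrophil genes Ly6g, Cxcr2, Camp, Ngp and Retnlg were not listed. The part of neutrophil transcripts in the S100a8 and S100a9 values was not tested. Wfdc17, a small secreted protein of activated macrophages, had 25.7 in the senescent and 2.15 in the young library.

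Antigen presentation genes were mostly at least 2-fold higher in the senescent library. Of 36 genes 25 were listed, 23 at least 2-fold higher and 0 at least 2-fold lower, with a median of 1.98, or -0.77 relative to the macrophage markers. H2-DMb1, a chain of the molecule that loads peptide on class II, had 6.33 in the senescent and 0.976 in the young library. Ifi30, the thiol reductase that unfolds antigens, was at 10.8 in senescent and 1.43 in young cells. The class I light chain gene B2m was at 21.6 in the senescent and 4.92 in the young library, a 4.39-fold difference, against 4.58-fold for Cd74.

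Interferon-induced genes were mostly higher in the senescent library, though several of the best known were not listed. Of 58 genes 39 were listed, 35 at least 2-fold higher and 0 lower, with a median of 1.76, or -0.99 relative to the macrophage markers. The list includes Ifitm genes, whose products block entry of viruses into cells. Ifitm1 was at 4.02 in the senescent library and at 0 in the young library. Ifitm2 had 17.6 in the senescent and 1.14 in the young library, and Ifitm3 had 24.7 in senescent and 3.26 in young cells. Ifi27l2a, an interferon-induced gene, had 19.3 in the senescent and 1.93 in the young library. Samhd1, which depletes nucleotides, was at 3.33 in the senescent and 0.421 in the young library. The canonical type I interferon genes Ifit1, Ifit2, Ifit3, Mx1, Rsad2 and Usp18 were not listed. Genes of the Ifi200 group are close copies within 474 kb on chromosome 1, so their single values are uncertain.

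Immediate early genes, which cells switch on within minutes of a stimulus or of tissue digestion, showed large differences. Of 44 genes 34 were listed, 32 at least 2-fold higher and 1 at least 2-fold lower in senescent cells, with a median of 2.68, or -0.072 relative to the macrophage markers. Fos had 31.8 in the senescent and 0.941 in the young library, a 33.8-fold difference. Egr1 was at 5.44 in senescent and 0.245 in young cells. Ier3, an early survival gene, stood at 3.18 in the senescent and 0.0529 in the young library, and Rgs1, a brake on chemokine receptor signalling, at 7.90 in senescent and 0.152 in young cells. The heat shock gene Hspa1b ran against the list, with 0.137 in the senescent and 1.15 in the young library. Fos and Hspa1b were also listed in the T and B clusters. Fos was at 3.76 in the senescent and 0.431 in the young library in T, and at 7.49 in senescent and 0.716 in young cells in B. Hspa1b was at 0.0797 in the senescent and 1.26 in the young library in T, and at 0.0343 in senescent and 0.552 in young cells in B. The clusters share both libraries, so a difference in handling between the libraries and a difference between the mice cannot be told apart for this group.

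Genes of arrest and of the cell cycle gave few listed members. Of 28 arrest and senescence genes 15 were listed, 8 at least 2-fold higher and 3 at least 2-fold lower, with a median of 1.33, or -1.41 relative to the macrophage markers. Cdkn1a, the gene of the cycle inhibitor p21, had 1.44 in the senescent and 0.142 in the young library. Cdkn2d, which encodes p19-INK4d, was at 0.874 in senescent and 0.0393 in young cells. Bcl2a1b, a survival gene with near-identical copies, was at 2.94 in the senescent and 0.328 in the young library. Its copies Bcl2a1a and Bcl2a1d were counted among the higher genes as well. So was Hmgb2, which like Lmnb1 is a gene that senescent cells lose. The list thus mixes genes of both kinds, and its counts and median do not measure senescence. Igfbp7, a secreted protein that tubule and vessel cells also make, was lower, at 1.09 in the senescent and 9.33 in the young library. The other genes at least 2-fold lower were Mif and Glb1, the gene of the beta-galactosidase stained as a senescence marker. Cdkn2a and Cdkn2b, the usual transcripts of cell senescence, were not listed. Of 28 cell cycle genes 7 were listed, 5 at least 2-fold higher and 0 lower, with a median of 1.33, or -1.42 relative to the macrophage markers, and Mki67 and Top2a of dividing cells were not among them.

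Cytoskeletal and matrix genes were higher in the senescent library. Of 37 actin and motility genes 36 were listed, 35 at least 2-fold higher and 0 lower, with a median of 2.05, or -0.70 relative to the macrophage markers. Tmsb4x, the actin-sequestering thymosin beta 4, had 199 in the senescent and 30.1 in the young library, and Actb had 116 in senescent and 21.8 in young cells. Fermt3, which activates leukocyte integrins, was at 2.26 in the senescent and 0.146 in the young library. Of 49 matrix, adhesion and repair genes 30 were listed, 24 at least 2-fold higher and 3 lower, with a median of 2.11, or -0.64 relative to the macrophage markers. Tgfbi, a matrix protein induced by TGF-beta, had 5.31 in the senescent and 0.287 in the young library. The fibronectin gene Fn1 was at 2.16 in senescent and 0.226 in young cells, and Spp1, osteopontin, at 6.47 in senescent and 0.909 in young cells. Timp3, a protease inhibitor that tubule cells also express, was lower, with 1.45 in the senescent and 7.51 in the young library.

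Iron genes were divided. Of 20 iron and haem genes 11 were listed, 8 at least 2-fold higher and 1 lower, with a median of 1.54, or -1.21 relative to the macrophage markers. Slc11a1, the phagosomal metal transporter, had 1.14 in the senescent and 0.0652 in the young library. The haptoglobin gene Hp was at 3.57 in senescent and 0.243 in young cells. Tfrc, the transferrin receptor, was lower, at 0.110 in the senescent and 0.586 in the young library, and the ferritin heavy chain gene Fth1 was at 86.3 in senescent and 128 in young cells, under 2-fold. The summed mean of the list was 97.5 in the senescent and 131 in the young library, so its sum and its median differ in direction, the sum being mostly Fth1.

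Genes of the mitochondrial genome and nuclear genes of the respiratory chain were lower in the senescent library. All 13 genes of the mitochondrial genome were at least 2-fold lower in senescent cells, with a median of -2.89, or -5.63 relative to the macrophage markers. Of 69 listed nuclear genes of the respiratory chain 55 were at least 2-fold lower and 0 higher. Their median was -1.30, or -4.05 relative to the macrophage markers. The summed means were 361 in the senescent and 2273 in the young library for the mitochondrial genome, and 237 in senescent and 591 in young cells for the nuclear genes. Cycs, cytochrome c, had 2.16 in the senescent and 10.9 in the young library. Both groups are also abundant in tubule cells, whose markers differed in the same direction. Of 23 glycolysis genes 12 were listed, 5 at least 2-fold higher and 1 lower, with a median of 0.20, or -2.54 relative to the macrophage markers and -0.97 relative to the ribosomal protein genes. The glycolysis median had no stable sign, being -0.52 when only genes reaching 0.5 in either library were used and -0.35 once the libraries were scaled without mitochondrial and tubule genes. Pkm, the pyruvate kinase of leukocytes, was at 2.72 in the senescent and 0.673 in the young library, whereas Tpi1, triose phosphate isomerase, was at 1.36 in senescent and 3.15 in young cells. Cytosolic ribosomal protein genes were at least 2-fold higher in 57 of 79 listed and lower in 0, with a median of 1.18, or -1.57 relative to the macrophage markers, and 3 of them were at least 2-fold higher once the libraries were scaled without mitochondrial and tubule genes.

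The lower genes were set beside the PT cluster, the authors' proximal tubule cells, in the same libraries. Of the 1138 genes at least 2-fold lower, 864 were also listed in PT and 274 were not, and of the 1651 higher genes the numbers were 653 and 998. Of the 2680 genes listed in both clusters, 1020 had a young mean in PT at or above that in the macrophage cluster. Of these 129 were at least 2-fold higher and 479 lower in senescent macrophages, with a median log2 ratio of -0.90. Where the young PT mean was between 0.1 and 1 times the young macrophage mean, 510 of 1646 were at least 2-fold higher and 385 lower, with a median of 0.72. Among the 12 genes with the lowest ratios, beside Kap, were genes of enzymes. Ugt2b38, a glucuronosyltransferase, had 0.0943 in the senescent and 11 in the young library. Cyp4b1, a cytochrome P450 enzyme, was at 0.253 in senescent and 14.3 in young cells, and Inmt, a methyltransferase, at 0.0415 in senescent and 7.36 in young cells. Markers of the distal nephron were listed less completely, with 5 of 20 markers listed, 4 of them at least 2-fold lower, and a summed mean of 1.40 in the senescent and 4.63 in the young library.

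Scaled to equal listed sums without mitochondrial genome and tubule list genes, the macrophage groups had positive medians. The sums so defined were 8070.3 in the senescent and 5336 in the young library. On this scale the median log2 ratio was 2.17 for the macrophage markers, 2.65 for the chemokines, 2.1 for the immediate early genes, 2.20 for complement and 1.40 for antigen presentation, against 0.24 over all listed genes. All 12 listed chemokines and 18 of 20 macrophage markers were at least 2-fold higher on this scale. The scaling removes the listed tubule genes from the sums only, not other tubule transcripts.

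Macrophage transcripts were also listed in other clusters of the same libraries. Of the 20 macrophage markers, 4 were listed in T, 4 in B, 7 in PT, 7 in LOH and 4 in endo. Apoe was higher in the senescent library in each, at 3.26 in senescent and 0.221 in young cells of T, 10.6 and 2.13 in that order in B, and 12.4 and 0.776 in PT. Its senescent mean in the macrophage cluster was 144. Over all listed genes the median log2 ratio was 0.72 in the macrophage cluster, -0.39 in T and -0.89 in B. Actin genes were higher in the senescent library in all 3, with medians of 2.05 in macrophages, 1.45 in T and 1.20 in B, and so were antigen presentation genes, with 1.98, 1.87 and 1.74 in that order. Lysosomal genes had a median of 1.61 in macrophages, -0.65 in T over 25 listed genes and -0.78 in B over 23. The difference between clusters was not tested.

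**Figure D5:**
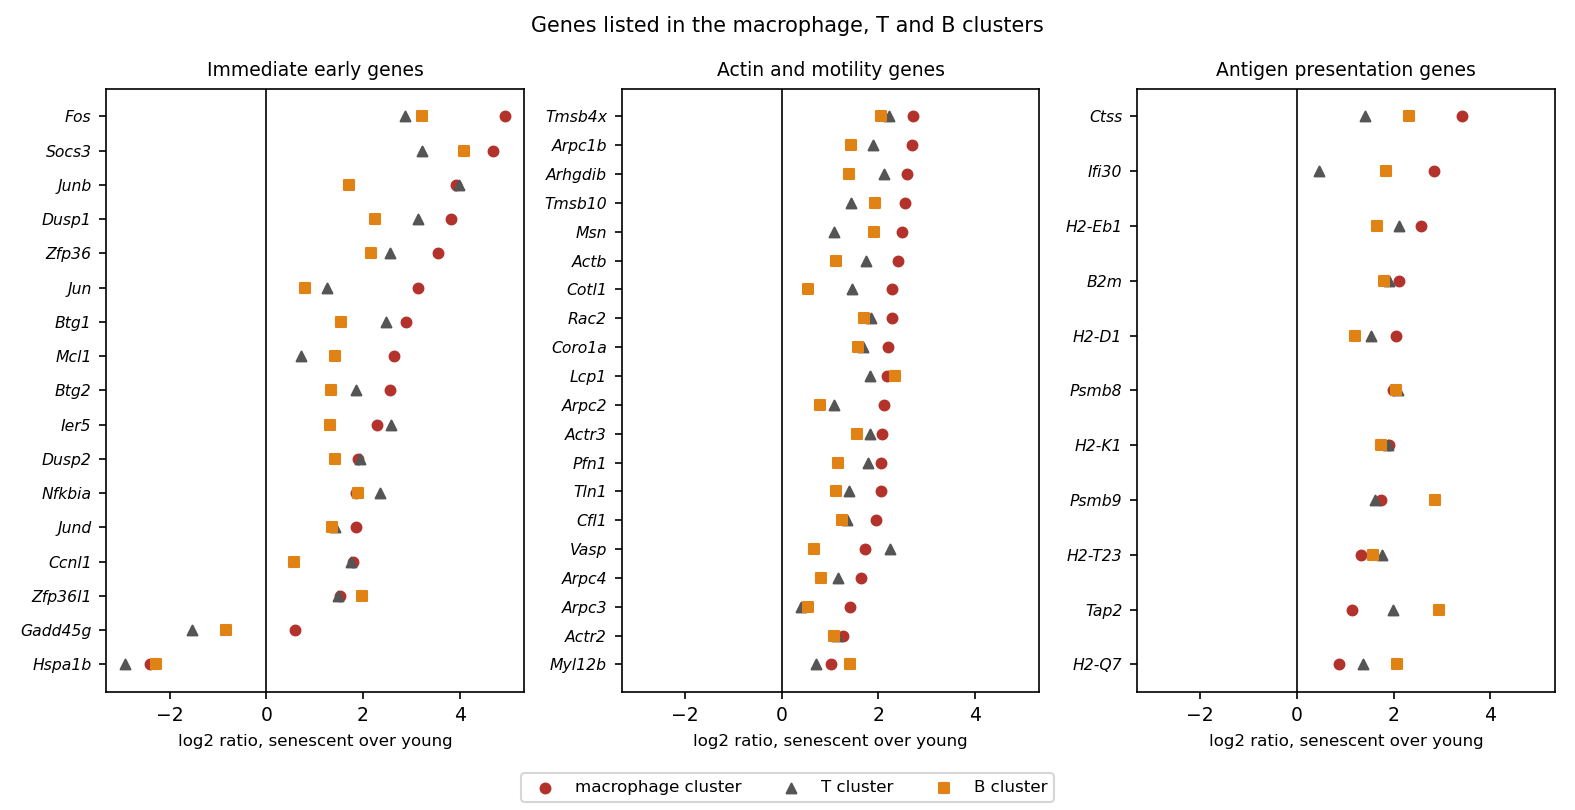
Log2 ratio of senescent over young mean level, after adding 0.1 to each, for immediate early, actin and motility, and antigen presentation genes listed in all of the macrophage (red circles), T (grey triangles) and B (orange squares) clusters, which share the same pair of libraries. Fos is at 4.94 in macrophages, 2.86 in T and 3.22 in B, and all the actin and antigen presentation genes shown lie right of 0 in each cluster.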

How the data were processed

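Whole-kidney cells of senescent and of young mice were profiled in droplets, 1 library per group. Cell Ranger 2.1.1 and the genome build mm10 are named in the submitters' processing notes. Filters on cells, clustering and any treatment of doublets or free RNA are not described in the sources used. The deposited table holds the authors' mean signal per gene, cluster and library, the authors' log2 fold change and a p-value over cells. The deposited log2 values equal the log2 of senescent over young means after adding 0.0001 to each, within 0.01. The deposited p-values, all under 0.05 in the cluster, were not used as calls, because cells of 1 library are not replicates. The columns were assigned by the labels' descriptions. The table's name for the contrast sets a mouse strain abbreviation against a term with the letters WT. It calls neither side young or senescent, so every direction rests on those descriptions.

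Computed here was the log2 of senescent over young mean with 0.1 added to each, and a gene counted as higher or lower from 2-fold. Folds are ratios of the means as deposited and are not given against 0. The count step was tested on simulated data. The members and the 35 gene lists were chosen with earlier results of these data known. Named by rule were the 6 given markers, the 12 largest and 12 smallest log2 ratios, the 5 highest means per library and up to 5 members of each list with the largest absolute log2 ratio among means of at least 0.5. Some genes that the rule names are not reported here. Outside the rule and chosen after their values were seen were Ace, Ackr3, Alox5ap, Axl, B2m, C1qc, Ccl4, Cfb, Ctsl, Cxcl16, Cxcl2, Fcgr1, Fcgr2b, Fcgr3, Fth1, Gas6, Hspa1b, Maf, Mertk, Mgl2, Mif, Msr1, Neu1, Selenop, Slc22a7, Spi1, Spp1, Tfrc, Timp3 and Tnf and, in the other observations, Cyba, Cybb, Hspd1, Hspe1, Igfbp6, Lilrb4b, Lrg1, Ncf1, Ncf4, Pirb, Tppp3 and Vsir. Bcl2a1d, Glb1, Hmgb2 and Lmnb1, given without values, were also outside the rule. RefSeq positions of GRCm38.p6, the same build, were matched for 4426 genes (99.2%). Python 3.11.15, numpy 2.4.6, pandas 2.3.3 and matplotlib 3.10.9 were used. Alternatives were other pseudocounts, minimum means, folds and scalings.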

Additional observations from a re-analysis of the deposited data

Results flagged for a closer look

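Among lists with at least 5 listed members in both clusters, there were 3 with median log2 ratios of opposite sign, both of at least 2-fold, in the macrophage cluster and in another immune cluster of the same libraries. None of these differences was tested, since each group had 1 library, and the listed members differ between clusters. Iron and haem genes had a median of 1.54 in macrophages over 11 listed genes and -1.08 in T over 11, a difference of 2.63. Receptors for uptake had 2.59 in macrophages over 30 and -1.04 in T over 5, a difference of 3.64. Matrix, adhesion and repair genes had 2.11 in macrophages over 30 and -1.01 in B over 11, a difference of 3.12. In B, 5 of these genes were higher and 6 lower, and in T 2 of the uptake receptors were higher and 3 lower. Over all listed genes the medians were 0.72 in macrophages, -0.39 in T and -0.89 in B. The B median of the matrix list thus lay near that of all genes listed in B. The chemokine gene Cxcl16 also had opposite signs, with a log2 ratio of 2.69 in macrophages (3.85 in the senescent and 0.514 in the young library) and -1.28 in B (0.0365 in senescent and 0.233 in young cells), a difference of 3.97.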

How the results depend on the processing

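No paired analysis was possible because each group had 1 library, and for the same reason no library could be left out. The count of genes at least 2-fold higher and lower was 387 and 304 with a pseudocount of 1, 662 and 517 with a minimum mean of 1 and 450 and 370 from 4-fold, where fewer genes can count by construction. Relative to all listed genes it was 649 and 1854, relative to ribosomal protein genes 347 and 1860, and relative to macrophage markers 31 and 3827, with a median over all listed genes of -2.02. With equal listed sums without mitochondrial and tubule list genes, chosen after seeing the data, 892 were higher. A pseudocount of 0.0001, a minimum mean of 0.5 or none, a fold of 1.5 and equal listed sums moved neither count by more than 1.5 times.

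With a pseudocount of 1, 16 of 27 list medians and 18 of 104 named genes of at least 2-fold came under it in the same direction, such as neutrophil 0.59, microbial sensing 0.48 and lipid handling 0.61.

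The scales that subtract a median shift every gene by that median, so genes and lists that differed less than the macrophage markers turn sign there by construction. Relative to macrophage markers the list medians turned to resident macrophage -0.74, monocyte -0.28, dendritic cell -0.77, neutrophil -0.26, phagocytic receptors -0.16, microbial sensing -0.96, lysosome and cathepsins -1.14, lipid handling -0.77, chemoattractant receptors -0.20, cytokines and signalling -0.81, antigen presentation -0.77, interferon-induced genes -0.99, matrix, adhesion and repair -0.64, iron and haem -1.21, lineage transcription factors -0.67, immediate early genes -0.072, arrest and senescence -1.41, cell cycle -1.42, actin and motility -0.70 and ribosomal proteins -1.57. The log2 ratios of single genes turned to Actb -0.33, Adgre1 -0.88, Axl -0.48, B2m -0.64, C3ar1 -0.072, Ccl4 -0.033, Ccr1 -0.18, Cd74 -0.56, Cdkn1a -0.081, Csf1r -0.39, Cx3cr1 -0.20, Cxcl16 -0.061, Cybb -1.11, Fcgr3 -0.35, H2-DMb1 -0.17, Ncf1 -0.22, Pkm -0.88, Pycard -0.12, Samhd1 -0.027, Spp1 -0.045, Tlr2 -0.32, Tmsb4x -0.025, Tnf -1.03 and Unc93b1 -0.028. No list median or named gene of at least 2-fold turned sign under the other alternatives. Of the smaller ones, the glycolysis median turned to -0.042 with a pseudocount of 1, -0.52 and -0.61 with minimum means of 0.5 and 1, -0.52 relative to all listed genes, -0.97 relative to ribosomal protein genes and -0.35 on the scale without mitochondrial and tubule genes. Relative to all listed genes and to ribosomal protein genes, Cyba turned to -0.35 and -0.80, Ddx3y to -0.11 and -0.57 and Malat1 to -0.12 and -0.57, and Cyba was -0.22 on the scale without mitochondrial and tubule genes. Depth, cell numbers and free RNA in the droplets are unknown, so how firmly a low mean is known could not be stated.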

Other observations

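Genes outside the lists gave further groups, named here after their values were seen. Of the subunits of the phagocyte NADPH oxidase, which makes superoxide against engulfed microbes, the cytosolic ones given here differed more than the membrane ones. Ncf4 had 1.96 in the senescent and 0.183 in the young library, and Ncf1 1.51 in senescent and 0.178 in young cells. The membrane subunit gene Cybb was at 5.92 in the senescent and 1.83 in the young library, and Cyba at 17.8 in senescent and 13.7 in young cells. The genes of 3 inhibitory receptors of leukocytes, picked for their values, had higher means in the senescent library. Pirb, an inhibitory receptor for MHC class I, had 3.98 in the senescent and 0.150 in the young library. Vsir, the checkpoint molecule VISTA, was at 2.66 in senescent and 0.193 in young cells. Lilrb4b, an inhibitory relative of Pirb, stood at 1.17 in the senescent and 0.0473 in the young library.

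Igfbp6 had 1.67 and Tppp3 1.48 in senescent cells, and both stood at 0 in young cells. Lrg1, a leucine-rich glycoprotein of the acute phase, was at 2.51 in the senescent and 0.0545 in the young library. Mitochondrial chaperone genes were lower, with Hspd1 at 1.17 in the senescent and 5.87 in the young library and its partner Hspe1 at 3.34 in senescent and 12.2 in young cells. Their directions match those of the respiratory chain genes of the nucleus. The nuclear RNA Malat1 was at 130.0 in the senescent and 85.3 in the young library. Ddx3y, carried on the Y chromosome, was the 1 of 6 sex-linked genes listed, at 0.589 in the senescent and 0.351 in the young library, so it was present in both.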
